A study of Ovis aries with 115 samples.

Results

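Norwegian White Sheep (NWS) and Fur ewes, the breeds of this series that came from Norway, were compared with each other in cervical tissue. The comparison held 55 of the 115 libraries of the series, 28 from NWS and 27 from Fur, chosen by the breed in the sample labels. There were 10 NWS and 8 Fur ewes in the induced follicular state, 10 and 10 in the natural follicular state, and 8 and 9 in the induced luteal state. Each library was 1 ewe sampled post mortem, so the ewes of each state are other animals. The induced states followed synchronisation of multiparous ewes with progestagen sponges and equine chorionic gonadotropin, as the study describes for the follicular ewes, and the natural state is labelled as such with no further protocol given in the sources used here. The tissue was taken from the middle of the cervix and snap frozen, and no treatment other than the synchronisation is given for any group. Suffolk and Belclare, the Irish breeds of the series, enter below only where a level needs a scale. The numbers of the NWS and of the Fur libraries in the deposited files form separate runs. The labels give no processing order or batch, so an effect of either could not be told apart from breed.

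The cervix of the ewe is a folded canal of smooth muscle and connective tissue, lined by an epithelium that secretes mucus. Oestradiol in the follicular phase and progesterone in the luteal phase change its mucus, its leukocytes and its muscle, and the passage of sperm depends on it. NWS and Fur are both breeds in which cervical insemination with frozen-thawed semen gives high fertility, so the comparison asks how far their cervices differ where fertility is high in both.

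Counts of reads per gene were available for 27054 Ensembl identifiers, with totals of 13758675 to 21404762 per NWS ewe and 13410148 to 22668698 per Fur ewe. The test covered 15235 genes with at least 1 CPM (CPM being counts scaled to the same library total in each ewe) in 10 or more of the 55 libraries. Levels below are CPM after scaling between libraries (TMM), fold changes are log2 of NWS over Fur (log2FC, with its standard error, SE), and a differentially expressed gene (DEG) had an adjusted p under 0.05 and a fold change above 1.5 in edgeR's quasi-likelihood test with Benjamini-Hochberg adjustment. A symbol was at hand for 1329 of the tested genes, and the other genes are given by number or by identifier. Those symbols come from the study's lists of genes that differed from Suffolk at the induced follicular state, mostly genes lower in Fur, and the induced follicular ewes used here made those lists. FOXC1 and SCGB2A1 were listed for NWS against Suffolk. The direction of a named gene is therefore not independent evidence, while the ewes of the natural follicular and luteal states are other animals.

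Defining markers of smooth muscle, epithelium, fibroblasts, endothelium, lymphocytes, neutrophils, ciliated cells and nerve were detected in both breeds, and none of them was at 0 in all ewes of a group. The summed smooth muscle markers ACTG2, DES and ACTC1 had a median of 4209 CPM in NWS and 3551 CPM in Fur, and the summed epithelial markers 1586 and 1551 CPM. The 8 marker sums overlapped between the breeds. Since whole tissue was sequenced, fewer cells of a type and less RNA per cell cannot be told apart.

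Across the 3 states, with state as a covariate, 255 genes differed between NWS and Fur, which is 1.67% of the genes tested. Of these, 131 (0.86%) were higher and 124 (0.814%) were lower in NWS. Of the named DEGs the mitochondrial gene COX-1 had the largest fold change, and the others differed by 1.54-fold to 5.15-fold. The median DEG moved by 0.91 on the log2 scale, 109 DEGs by more than 2-fold and 26 by more than 4-fold, 13 in each direction. The DEGs were weakly expressed genes more often than the genes tested, with 158 of 255 (62.0%) at a mean under 5 CPM against 20.5% of all genes tested. The sign of the fold change was the same in all 3 states for 252 of the 255, values that the pooled fit itself used.

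**Figure D1:**
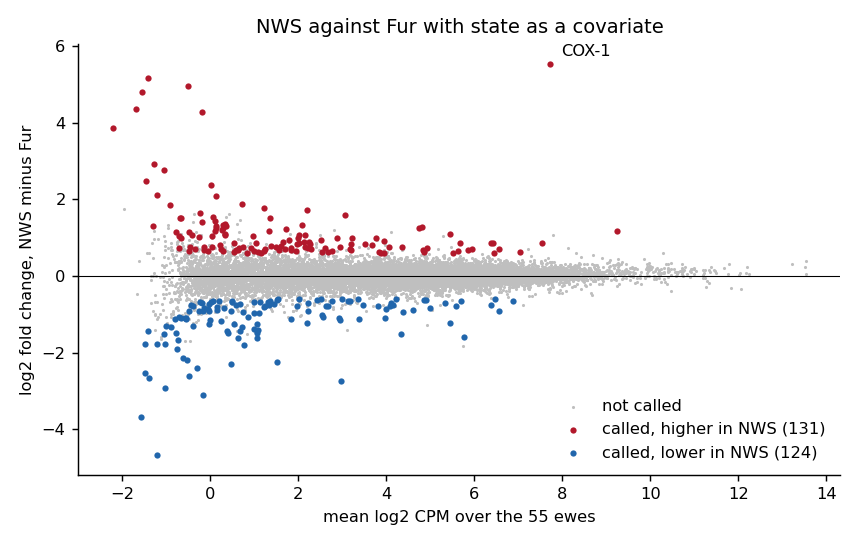
The plot sets each of the 15235 tested genes at its mean log2 CPM over the 55 ewes on the horizontal axis and at its log2FC of NWS over Fur on the vertical axis, with DEGs in colour. The 131 genes higher in NWS and the 124 lower in NWS lie mostly at low expression, and COX-1 stands alone at the upper right.

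Without the fold change threshold, 936 genes (6.14%) passed the adjusted p, 587 of them higher in NWS. The number of DEGs was 26 when the fold change itself was tested against 1.5, 320 with DESeq2, and 89 over genes with at least 10 counts in every library. Leaving out each library in turn gave 183 to 284.

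COX-1, the table's symbol for cytochrome c oxidase subunit 1, an enzyme subunit of the respiratory chain that the mitochondrial genome encodes, was the named gene with the largest difference. At the induced follicular state the NWS ewes had 1522 to 2079 CPM (median 1704) and the Fur ewes 25.96 to 50.17 CPM (median 34.2). At the induced luteal state the NWS ewes had 1305 to 2129 CPM (median 1708) and the Fur ewes 25.68 to 37.7 CPM (median 32.1). The breeds did not overlap in either of these states.

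At the natural follicular state the Fur ewes lay between 27.43 and 41.63 CPM (median 30.2). Of the 10 NWS ewes, 8 were above all Fur ewes, with a highest value of 2577 CPM, but NWS replicates 4 and 10 had 39.0 and 32.9 CPM, within the Fur range. None of the 27 Fur ewes of the 3 states exceeded 50.17 CPM, and 26 of the 28 NWS ewes were above all of them. In CPM of each library's own total, the lowest of 30 Belclare ewes had 1774 CPM and the lowest of 29 Suffolk ewes 1614 CPM, so the low level was found in Fur and in those 2 NWS ewes, and in no ewe of the other breeds.

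The log2FC of COX-1 over the 3 states was 5.55 (SE 0.23, adjusted p = 5.08e-26), or 46.7-fold. Within states it was 5.61 (adjusted p = 2.34e-16) in the induced follicular, 5.31 (adjusted p = 0.000151) in the natural follicular and 5.76 (adjusted p = 2.86e-16) in the induced luteal state. MT-ND6, a subunit of complex I and the other mitochondrial gene with a symbol, had 4.77 to 20.95 CPM in NWS (median 9.76) and 4.84 to 21.08 CPM in Fur (median 8.11). The breeds overlapped throughout, and its log2FC was 0.18 (95% interval -0.08 to 0.43, adjusted p = 0.415). The difference in COX-1 was thus not seen at MT-ND6. MT-ND6 had at most 21.08 CPM in any ewe, far below COX-1 in most NWS ewes. A single gene at that level does not show whether other mitochondrial genes differed, and this was not tested.

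**Figure D2:**
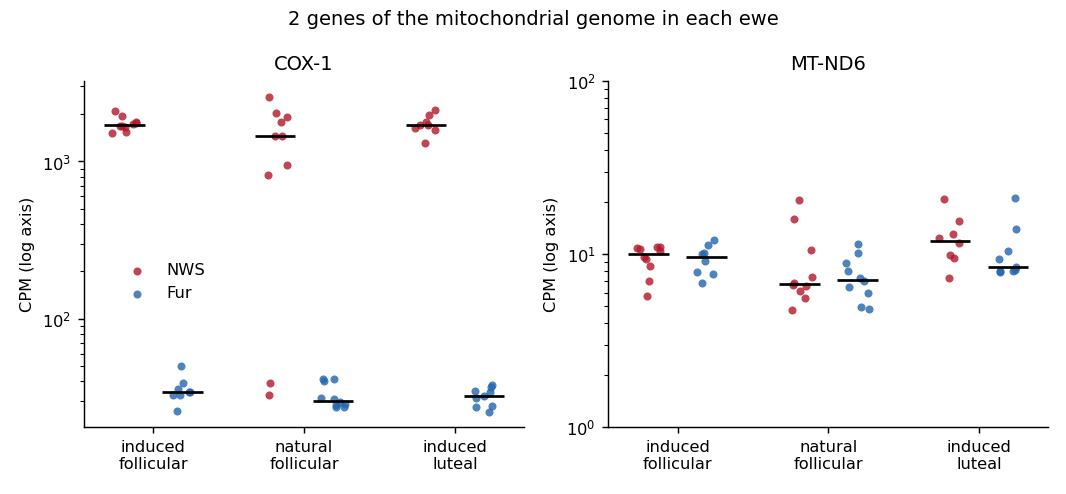
CPM on a log axis for COX-1 (left) and MT-ND6 (right), with 1 point per ewe, NWS in red and Fur in blue, and black bars at the group medians. COX-1 separates the breeds in the induced states, with NWS at 1305 CPM or more and Fur at 50.17 CPM or less, while 2 NWS ewes of the natural follicular state sit among the Fur ewes. MT-ND6 overlaps in each state.

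NWS natural follicular replicates 4 and 10 were examined over the other DEGs. For each of the 55 ewes, the DEGs of a fit without that ewe were taken, COX-1 left out, and the ewe was placed by whether its log2 level lay nearer to the mean of its own breed or of the other breed in its state. NWS replicate 4 was nearer to NWS at 157 of 239 genes (65.7%) and replicate 10 at 159 of 280 (56.8%). The NWS ewes ranged from 44.1% to 78.0% and the Fur ewes from 51.6% to 78.2%, with 3 NWS ewes and no Fur ewe below 50%. At genes other than COX-1, both low NWS ewes therefore lay within the range of the NWS ewes. The fit without these 2 ewes called 258 genes.

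Of the 1329 tested genes with a symbol, 35 (2.63%) were DEGs over the 3 states, 29 higher and 6 lower in NWS. All 35 kept their sign in each state, values that the pooled fit itself used. The symbols were mostly those of genes lower in Fur, and the 220 DEGs without a symbol held 102 higher and 118 lower in NWS. HHLA2, a B7 family regulator of T cells, had 2.48 to 8.23 CPM in NWS (median 4.35) and 0.945 to 8.12 CPM in Fur (median 2.16). The groups overlapped, but 19 of 27 Fur ewes were below every NWS ewe, and its log2FC was 0.93 (SE 0.17, adjusted p = 0.000556).

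IL12RB2, a subunit of the receptor for interleukin 12, had 0.251 to 7.69 CPM in NWS (median 1.97) and 0.203 to 2.18 CPM in Fur (median 0.716). Its higher values were in the follicular states, where 7 of 10 induced and 6 of 10 natural NWS ewes were above all Fur ewes of the same state, against 2 of 8 luteal ewes. The log2FC was 1.35 (SE 0.27, adjusted p = 0.00144). CXCR2 (ENSOARG00000019492), the chemokine receptor by which neutrophils respond to interleukin 8, reached 5.76 CPM in NWS (median 0.928) and 2.05 CPM in Fur (median 0.321), with a log2FC of 1.5 (SE 0.33, adjusted p = 0.00487). At the luteal state CXCR2 rested on few counts, with at most 2 in any Fur ewe and 19 in any NWS ewe. Another identifier of CXCR2 did not pass the expression filter and was not tested. CD177, the other neutrophil marker tested, did not follow CXCR2, with mean levels of 5.18 CPM in NWS and 10.48 CPM in Fur and a log2FC of -1.04 (adjusted p = 0.0633). The summed neutrophil markers had 0.63 to 30.27 CPM in NWS and 1.18 to 53.44 CPM in Fur, and their part in the CXCR2 difference was not tested.

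SPOCD1, a nuclear protein that works in small-RNA-directed DNA methylation of the male germ line, had 0.389 to 10.83 CPM in NWS (median 1.56) and 0.156 to 1.89 CPM in Fur (median 0.622). Its log2FC was 1.54 (SE 0.26, adjusted p = 0.000197), and 12 NWS ewes were above all Fur ewes. HPCAL4, a neuronal calcium sensor, had a median of 1.44 CPM in NWS and 0.660 CPM in Fur, with a log2FC of 1.17 (SE 0.22, adjusted p = 0.000813). Both were weakly expressed, and both overlapped between the breeds in every state.

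The beta tubulin genes TUBB4A and TUBB3, isotypes best known from neurons, were higher in NWS, TUBB4A through some of the ewes. TUBB4A had a median of 0.840 CPM in NWS and 0.572 CPM in Fur, and 6 of 28 NWS ewes, at up to 48.72 CPM, were above every Fur ewe, of which the highest had 2.52 CPM. Its log2FC of 2.37 (adjusted p = 0.00503) fell to 1.36 (adjusted p = 0.0406) without the highest ewe, NWS induced luteal replicate 5. TUBB3 had a median of 1.91 CPM in NWS and 0.484 CPM in Fur, with a log2FC of 1.29 (SE 0.35, adjusted p = 0.0214). These medians pool states of unlike level. In NWS and Fur they were 3.64 and 2.01 CPM in the induced follicular state and 3.20 and 1.74 CPM in the natural follicular state. In the induced luteal state they were 0.505 and 0.185 CPM. MAN2B2, an alpha-mannosidase of the lysosome, was present as 2 identifiers, between which reads may be split. The identifier of smaller p, ENSOARG00000011020, had a median of 2.69 CPM in NWS and 1.33 CPM in Fur and a log2FC of 0.87 (SE 0.20, adjusted p = 0.00773), and the other, ENSOARG00000010776, one of 0.75 (adjusted p = 0.0149).

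The 15 named DEGs outside the rule by which genes were chosen were all higher in NWS, and they include ENSOARG00000010776, the other identifier of MAN2B2. TAC3 and ALOX12 were chosen from them after their values were seen. TAC3, the precursor of neurokinin B, had 0.558 to 328.6 CPM in NWS (median 123.0) and 0.111 to 239.1 CPM in Fur (median 63.8), with a log2FC of 1.27 (adjusted p = 0.0455). Its log2FC was 0.56 in each follicular state, under the fold change threshold, and 3.7 in the induced luteal state. ALOX12, a lipoxygenase of arachidonic acid, had medians of 102.3 and 42.1 CPM (log2FC 0.86, adjusted p = 0.0146). The breeds overlapped at both genes, and the log2FC values of the 15 ran from 0.63 to 1.51.

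The 6 named genes lower in NWS were led by FOXC1, a forkhead transcription factor of mesenchymal and eye development. FOXC1 had 0.376 to 3.52 CPM in NWS (median 0.800) and 0.697 to 6.72 CPM in Fur (median 2.76), and 11 NWS ewes were below every Fur ewe. The log2FC was -1.44 (SE 0.24, adjusted p = 0.000129), with -1.76 in the induced follicular, -1.80 in the natural follicular and -0.68 in the induced luteal state.

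SCGB2A1, a secretoglobin that glands of the reproductive tract and the breast secrete, had 0 to 10.56 CPM in NWS (median 1.09) and 0.141 to 21.31 CPM in Fur (median 1.77). At the induced follicular state 6 of 8 Fur ewes were above all NWS ewes, with means of 8.28 and 1.57 CPM, whereas the natural follicular means were 2.25 CPM in NWS and 2.64 CPM in Fur. Its log2FC over the states was -1.61 (SE 0.47, adjusted p = 0.0300), and -1.25 (adjusted p = 0.0684) without Fur induced luteal replicate 7, which held the 21.31 CPM. The state fold changes were -2.39, -0.23 and -2.38 in the induced follicular, natural follicular and induced luteal states.

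The other genes lower in NWS differed by less than 2-fold. EMB, an immunoglobulin family glycoprotein that escorts lactate transporters to the membrane, had a median of 99.7 CPM in NWS and 168.3 CPM in Fur (log2FC -0.64, SE 0.17, adjusted p = 0.0205). FAM84A had medians of 22.3 and 37.2 CPM (log2FC -0.62, adjusted p = 0.0058), and MYO7A, an unconventional myosin, 8.06 and 11.8 CPM (log2FC -0.66, adjusted p = 0.00841). EGFL6, a matrix protein with EGF repeats, had medians of 1.75 CPM in NWS and 2.76 CPM in Fur (log2FC -0.77, adjusted p = 0.0204). All 4 overlapped between the breeds.

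**Figure D3:**
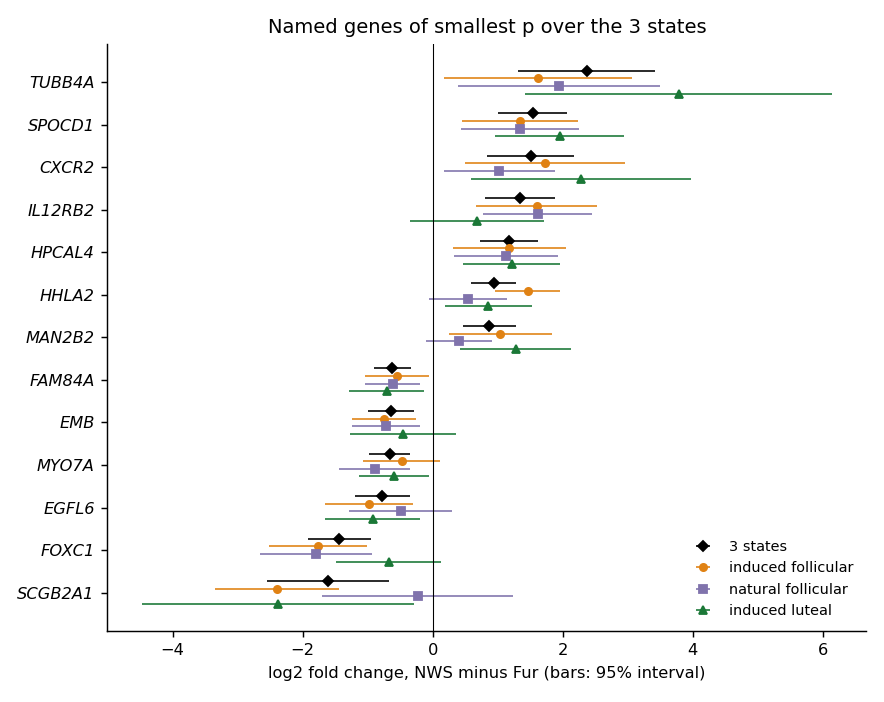
Log2 fold changes of NWS over Fur with 95% intervals for the named DEGs of smallest p, COX-1 left out for scale, over the 3 states (black diamonds) and within each state (coloured). The intervals over the 3 states lie on 1 side of 0, as the choice of DEGs requires. Each gene has the same sign in the 3 states, values that the pooled fit itself used. The state intervals are wider, from -2.39 to -0.23 in point value for SCGB2A1 and from 1.62 to 3.78 for TUBB4A.

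Gene lists for the cell types and functions of the cervix were read member by member. The contractile smooth muscle list had 0 of 10 members called, with a median log2FC of 0.04 against 0.00 over all genes tested. ACTG2, the smooth muscle gamma actin, had 260.6 to 9324 CPM in NWS (median 1764) and 182.2 to 4689 CPM in Fur (median 1422), with a log2FC of 0.02 (95% interval -0.46 to 0.51). DES, desmin, had medians of 2917 and 2265 CPM and a log2FC of 0.17 (95% interval -0.28 to 0.61). These intervals give the range of differences compatible with the ewes measured. They are not the limit of what the test could detect, since a call also needed the adjusted p.

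ACTC1, the cardiac alpha actin, had a log2FC of 0.18 (95% interval -0.68 to 1.03), and POPDC2, a muscle membrane protein that binds cyclic AMP, one of -0.01 (-0.50 to 0.48). NWS natural follicular replicate 5 had the highest ACTG2 and DES, at 9324 and 12980 CPM, and the highest PCP4, at 261.2 CPM. Leaving out 1 library at a time moved DES between 0.01 and 0.31 and ACTG2 between -0.14 and 0.12. In the luteal state the log2FC values of ACTG2, DES and ACTC1 were below 0, at -0.43, -0.30 and -0.90, with adjusted p = 0.706, 0.825 and 0.706.

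The calmodulin and calcium list had 0 of 11 members called, with a median of -0.02. PNCK, a calmodulin-dependent kinase, had a log2FC of 0.04 (95% interval -0.49 to 0.57) and PCP4, a small calmodulin binding peptide, one of 0.12 (-0.47 to 0.71). PTGS1, cyclooxygenase 1, the enzyme of prostaglandin synthesis that is sometimes also called COX-1, had medians of 25.3 CPM in NWS and 23.9 CPM in Fur and a log2FC of -0.03 (95% interval -0.34 to 0.28). PAQR5, a membrane progestin receptor, was the called member of the 19 steroid and prostaglandin genes, with 14 of 28 NWS ewes above every Fur ewe, medians of 2.02 and 1.31 CPM and a log2FC of 0.76 (SE 0.18, adjusted p = 0.00877).

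Of 17 epithelial junction genes none was called (median -0.03), and none of 17 ion and water transport genes (median -0.09). MUC5AC, a gel-forming mucin of cervical mucus, was the called member of 12 mucin genes (list median 0.05), with 0.660 to 54.7 CPM in NWS (median 5.50) and 0.841 to 10.31 CPM in Fur (median 3.40). Its log2FC of 0.997 (SE 0.30, adjusted p = 0.0371) lay close to the threshold. The call was lost in 10 of the 55 fits that left out 1 ewe, with an adjusted p of up to 0.0623, and in the fit of 4 breeds (adjusted p = 0.173). The ewes left out in those 10 fits were 6 Fur and 4 NWS ewes. KRT1, a keratin of differentiating squamous epithelium, was the called member of 12 identity genes (list median 0.01), with medians of 8.76 and 3.91 CPM and a log2FC of 1.07 (adjusted p = 0.018), which lost its call without NWS induced luteal replicate 1 (0.83, adjusted p = 0.0542).

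CCL26, an eosinophil chemokine, and SCGB2A1 were the called members of 13 secreted epithelial genes, in opposite directions, beside a list median of 0.26. CCL26 had a median of 4.04 CPM in NWS and 2.45 CPM in Fur, with 53.4 CPM in the highest NWS ewe (log2FC 1.23, SE 0.32, adjusted p = 0.0164). ACSL6, which activates long-chain fatty acids, was called among 17 fatty acid and cholesterol genes (list median 0.04), with a log2FC of 1.04 (adjusted p = 0.0137). It was weakly expressed, with medians of 1.19 CPM in NWS and 0.622 CPM in Fur and at most 12 counts in any Fur induced follicular ewe. Its log2FC was 1.97 in the induced follicular, 0.36 in the natural follicular and 0.97 in the induced luteal state, without a call in any of them. None of the 28 genes of the lysosome list was called (median 0.00). That list did not hold MAN2B2, the lysosomal gene given above, which was called at both of its identifiers.

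IL12RB2 was the called member of 25 lymphocyte genes, of which 21 had positive fold changes (list median 0.23), and the 5 summed lymphocyte markers had a median of 19.8 CPM in NWS and 16.7 CPM in Fur. CXCR2 was the called member of 16 myeloid genes (list median -0.07). None of 25 interferon response genes was called over the states (median 0.00). Their median was -0.04 in the induced follicular, -0.24 in the natural follicular and 0.46 in the induced luteal state, beside 0.00, 0.01 and 0.01 over all genes, and no member was called in any state.

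EGFL6 was the called member of 30 fibroblast and matrix genes, of which 23 had values above 0 (list median 0.16), THBS2 being counted as several identifiers. As the symbols were mostly those of genes lower in Fur, a list can lean to positive values by that choice. None of 8 endothelial genes (median 0.05) and none of 11 ciliated cell genes (median -0.05) was called. TUBB3 was the called member of 8 nerve and glia genes (median 0.25), FOXC1 of 28 patterning genes (median -0.02), and no gene of the 5 clock outputs was called (median -0.12). In all, 11 of the 20 lists held a called member, 10 of them with 1 and the secreted epithelial genes with 2. These counts stand beside 1.67% called of all genes tested and 2.63% of those with a symbol, and nothing particular to a list is read from them.

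**Figure D4:**
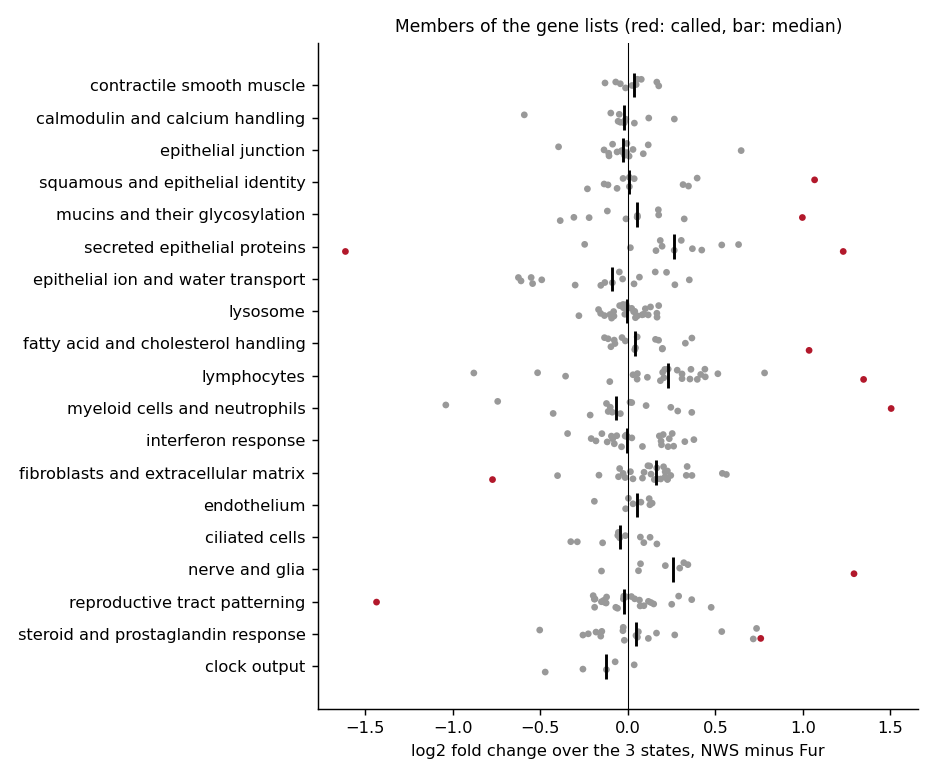
Each point is a member of a gene list at its log2FC of NWS over Fur over the 3 states, red where it is a DEG, with a black bar at the median of the list and the mitochondrial list left out. The medians lie between -0.12 (clock output) and 0.26 (secreted epithelial proteins), and each list has at most 2 red points.

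Several genes without a symbol were near absent in all ewes of one breed and present in some of the other. ENSOARG00000002193 had 0.0565 to 29.7 CPM in NWS (median 0.842) and 0 to 0.921 CPM in Fur (median 0.243). In 11 of 28 NWS ewes, 5 induced follicular, 2 natural follicular and 4 luteal, it was at 5 CPM or more, and the log2FC was 4.27 (SE 0.60, adjusted p = 7e-06). ENSOARG00000009308, chosen after its values were seen, was at 5 CPM or more in 11 NWS ewes (3, 5 and 3 in the same states), with 45.3 CPM in the highest, while no Fur ewe exceeded 0.779 CPM and no NWS ewe lay between the 2 levels.

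The ewes with these 2 genes were not the same, since 4 NWS ewes had both, 7 only the first and 7 only the second. Among Suffolk ewes 12 of 29 had ENSOARG00000002193 and 15 had ENSOARG00000009308 at 5 CPM or more, and among Belclare ewes 16 and 3 of 30. Fur was thus the breed without such ewes for both genes. ENSOARG00000001169 reached 8.80 CPM in NWS (median 2.02), with 16 ewes above every Fur ewe, of which none exceeded 0.261 CPM or 4 counts (log2FC 5.16, SE 0.65, adjusted p = 3.85e-07).

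The genes lower in NWS of smallest p were ENSOARG00000015120 and ENSOARG00000007490. ENSOARG00000015120 had at most 0.396 CPM, or 6 counts, in any NWS ewe and 0 to 9.83 CPM in Fur (median 2.00), with 18 of 27 Fur ewes above every NWS ewe (log2FC -4.68, SE 0.54, adjusted p = 6.52e-08). The fold changes of these near-absent genes rest on few counts in the low breed. ENSOARG00000007490 was expressed in both breeds, at 0.664 to 2.73 CPM in NWS (median 1.20) and 1.23 to 6.84 CPM in Fur (median 3.28), and its log2FC was -1.42 (SE 0.17, adjusted p = 1.75e-07). At the luteal state its 8 NWS ewes, at 0.752 to 1.02 CPM, did not overlap with the 9 Fur ewes, at 1.23 to 5.28 CPM. By a rule set after the values were seen (under 1 CPM in every ewe of a breed, and at least 5 CPM and 5 times the highest of those ewes in 1 or more ewes of the other), 5 genes were near absent in Fur and 3 near absent in NWS. This choice fixed that the breeds differ at these genes, so their p-values support nothing further.

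**Figure D5:**
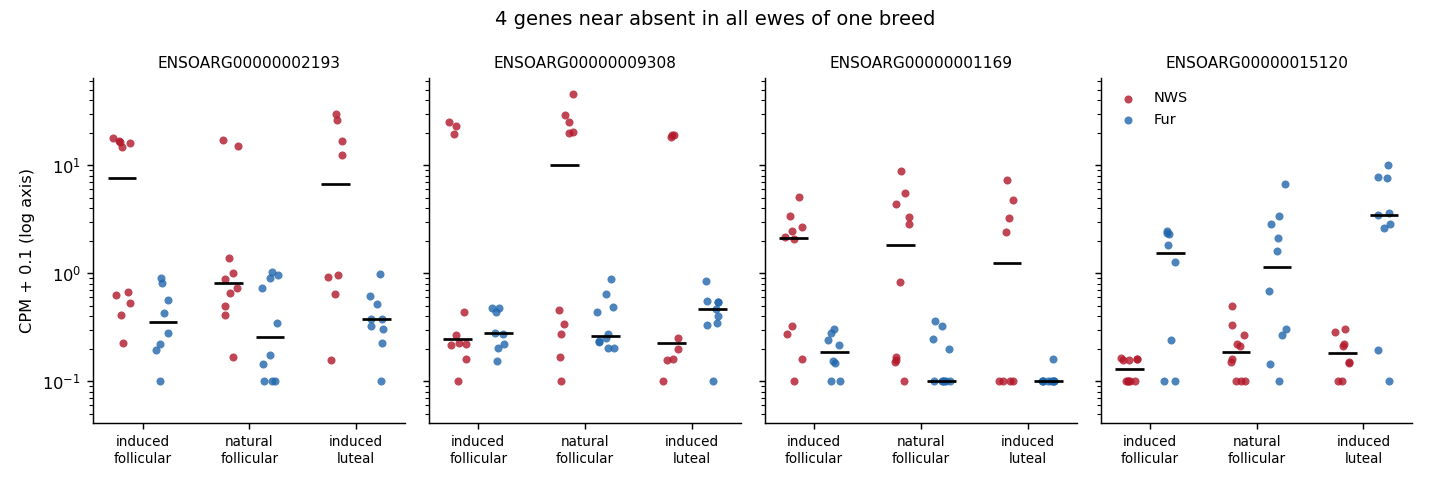
CPM plus 0.1 on a log axis for 4 genes without a symbol, 1 point per ewe, NWS in red, Fur in blue, black bars at the group medians. In the first 2 panels the NWS ewes form a group at 12 CPM or more and a group with the Fur ewes near or under 1 CPM, and in the last panel the Fur ewes spread up to 9.83 CPM above NWS ewes of at most 0.396 CPM.

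Within a state few genes separated the breeds. At the induced follicular state COX-1 was the only DEG, or 0.00656% of the genes tested, and 1107 genes (7.27%) had an unadjusted p under 0.05. At the natural follicular state 9 genes (0.0591%) were DEGs, 2 higher (0.0131%) and 7 lower (0.0459%) in NWS. At the induced luteal state 8 (0.0525%) were DEGs, 2 higher (0.0131%) and 6 lower (0.0394%), and 10 genes (0.0656%) passed the adjusted p alone in each of these 2 states, and COX-1 was the only DEG with a symbol in each. DESeq2 called 40, 54 and 57 genes, and leaving out 1 library moved the counts from 1 to between 1 and 10, from 9 to between 2 and 13, and from 8 to between 3 and 14. The breeds did not overlap at 7 genes (0.0459%) in the induced follicular, 2 (0.0131%) in the natural follicular and 15 (0.0985%) in the induced luteal state, and at none over all 55 ewes.

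For scale, the same 15235 genes were compared between each breed and Suffolk, whose ewes both comparisons share. Of these genes 2846 differed for NWS and 2043 for Fur in the induced follicular state, 149 and 1467 in the natural follicular state, and 653 and 2155 in the induced luteal state. Over all genes the median SE was 0.15 in the induced follicular state for NWS against Fur, 0.15 for Fur against Suffolk and 0.145 for NWS against Suffolk. In the natural follicular state it was 0.178, 0.17 and 0.222 for the same comparisons, and in the induced luteal state 0.161, 0.161 and 0.169, so the count of 149 came with the largest SE. For NWS against Fur in the natural follicular state, the median SE was 0.143 without NWS replicate 5. It was 0.180 to 0.186 with any other ewe of that state left out. How far this ewe set the count of 149 was not tested.

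Since each state had its own ewes, the DEGs of a state could be looked up in the others. Of the 9 natural follicular DEGs, all 9 had the same sign in the induced follicular ewes and 7 an unadjusted p under 0.05 there, against 7.27% of all genes, and 8 had the same sign in the luteal ewes, 5 with a p under 0.05 against 11.1%. Of the 8 luteal DEGs, all 8 had the same sign in both follicular states, with 5 and 7 under 0.05, against 7.27% and 12.1% of all genes. The differences were smaller there, with a median size of 3.41 where the luteal DEGs were called and 1.49 and 1.85 in the induced and natural follicular ewes. These DEGs were chosen by their values in the luteal ewes, so a smaller size in other ewes follows from that choice. No larger breed difference in the luteal state is read from these sizes.

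No gene passed the adjusted p in the tests of whether the breed difference itself changed with state (edgeR's quasi-likelihood test). Between the induced and natural follicular states 735 genes had an unadjusted p under 0.05, 4.82% of those tested, and 474 (3.11%) and 503 (3.3%) between each of these states and the luteal state. DESeq2 called 1, 1 and 2 genes. The state fold changes of IL12RB2, FOXC1, SCGB2A1, TAC3 and ACSL6 were therefore not shown to differ between states.

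Between NWS and Fur lay a part of the variance in log2 CPM over all tested genes of 7.97% in the induced follicular, 8.01% in the natural follicular and 9.23% in the induced luteal state. Over all divisions of the ewes into groups of the same sizes, the median share was 5.72%, 4.93% and 5.87%. None passed 0.05 in a one-sided exact permutation test over all divisions of the ewes (p = 0.0732, 0.0599 and 0.0745). Over the 500 genes of largest variance the shares were 8.92%, 9.75% and 13.3%, with exact permutation p = 0.0511, 0.0382 and 4.11e-05, the last the smallest p that its 24310 divisions can give.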

How the data were processed

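Cervical RNA was extracted with TRIzol, and stranded poly(A) libraries were sequenced as pairs. After trimming, the authors aligned reads to Oar_v3.1 with STAR (2.6.1b per the labels), kept uniquely mapped pairs with few mismatches and counted them per Ensembl gene with featureCounts (Subread 1.6.3). A level thus depends on how closely the reads of a ewe match the reference, and its part in any difference was not tested. Whether the counting used strand is not given in the sources used here. The deposited values are raw counts, 1 table per ewe.

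Genes with at least 1 CPM in 10 of the 55 libraries were fitted with edgeR 4.0.16 (R 4.3.3) by TMM and the quasi-likelihood test, pooled with state as a covariate and within each state, and all 6 groups in 1 fit for interactions. DESeq2 1.42.0 was an alternative. The code was tested on simulated data. Labels give no batch, so p-values measure the spread between ewes. Over 227 pairs of libraries within groups, chi-square divided by its degrees of freedom was at least 13.2, so none was counted as a repeat. A Suffolk library with conflicting labels was left out.

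The members and gene lists were chosen with earlier results of these data known. Named genes were, among those called, the 8 of smallest p in each direction over the states, 2 per direction per state and per list, COX-1, MT-ND6, ACTG2, DES, ACTC1, POPDC2, PNCK, PCP4 and PTGS1, and the 2 unnamed identifiers of smallest p per direction. ENSOARG00000009308, TAC3 and ALOX12 were added after their values were seen. Leaving out each library of the pooled fit was added after seeing the data. No sequence or coordinate is given, since no genome of the build of the files was used here.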

Additional observations from a re-analysis of the deposited data

Results flagged for a closer look

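Among 198 groups of values of the genes described above (33 genes in 6 groups), 18 had a highest or lowest ewe far from the others on the log2 scale, by a test that chance alone meets in about 1 of 20 groups. Ewes high for their group were NWS induced luteal replicate 4 for SPOCD1 (10.8 CPM), NWS induced luteal replicate 5 for TUBB4A (48.7 CPM), NWS natural follicular replicate 7 for FOXC1 (3.52 CPM), NWS induced luteal replicate 8 for FAM84A (52.6 CPM), NWS natural follicular replicate 5 for PCP4 (261.0 CPM, others at most 37.8 CPM), Fur natural follicular replicate 2 for CCL26 (5.54 CPM) and Fur induced luteal replicate 2 for ENSOARG00000001169 (0.0614 CPM, others at 0).

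Ewes low for their group were NWS induced follicular replicate 5 for HPCAL4 (0.12 CPM), Fur induced luteal replicate 7 for TUBB4A (0.0561 CPM), NWS natural follicular replicate 3 for KRT1 (2.46 CPM), Fur induced follicular replicate 6 for KRT1 (0.462 CPM), Fur induced luteal replicate 8 for KRT1 (0 CPM), and NWS natural follicular replicate 5 for PAQR5 (0.08 CPM). EMB was low in Fur induced follicular replicate 4 (88.6 CPM) and NWS induced follicular replicate 9 (18.6 CPM). Fur induced follicular replicate 4 was also low for MUC5AC (0.843 CPM), and Fur induced luteal replicate 1 was low for ENSOARG00000009308 (0 CPM). Fur natural follicular replicate 3 was low for PNCK (0.977 CPM, others at least 2.76 CPM). Several of the flagged values lay near 0 CPM and rest on few reads. ENSOARG00000001169 had at most 1 count in any Fur induced luteal ewe, so that flag says little about the ewe.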

How the results depend on the processing

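Over the 3 states the 255 DEGs became 936 without the fold change threshold, 451 without a filter on low counts, 89 over genes with at least 10 counts in every library, 26 by glmTreat and 84 with the replicate number as a replicate block, and 183 to 284 with 1 library left out. The median of all genes moved by less than 0.1 under each scaling.

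The induced follicular count of 1 became 40 with DESeq2, 4 without a filter, 3 with at least 10 counts, 11 with 6 groups in 1 fit and 1 to 10 with 1 library left out (over 1 without Fur replicate 3, 4 or 7 or NWS replicate 2 or 4). The natural follicular count of 9 became 54 with DESeq2, 15 without a filter, 1 with at least 10 counts, 3 by glmTreat, 0 with the replicate block, 4 with the ACTG2 and DES covariate, 5 without NWS replicates 4 and 10, 39 with 6 groups and 2 to 13 with 1 library left out (under 6 without Fur replicate 1, 3, 5, 7 or 9 or NWS replicate 2, 3, 4, 5, 6, 7, 9 or 10). The induced luteal count of 8 became 57 with DESeq2, 3 with at least 10 counts, 3 by glmTreat, 1 with the block, 15 with the covariate, 15 with 6 groups and 3 to 14 with 1 library left out (14 without NWS replicate 2, 3 to 5 without Fur replicate 1, 3, 5 or 7 or NWS replicate 4, 7 or 8). DESeq2 called 1, 1 and 2 genes in the interactions, ENSOARG00000002980 in the first and second and ENSOARG00000007452 and ENSOARG00000004790 in the third, where edgeR called 0 in each alternative run. The natural follicular share of variance passed 0.05 over the 500 most variable genes (9.75%) and with a prior count of 0.5 (8.25%, exact permutation p = 0.0458), the luteal share over the 500 genes (13.3%). The cause of these shifts was not tested.

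The labels give the same replicate numbers to both breeds, but ewes of 1 number did not deviate together (correlation -0.47 to 0.21 over 26 pairs, 3 above 0.1, none the best match of its number), so the numbers are not a pairing.

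Of 2173 values of single genes under the alternatives, 2127 stayed on their side of the threshold, 46 lost their call and none reversed; 51 values of uncalled genes changed sign. With the replicate block 13 of the 25 called genes lost their call, by glmTreat 17, and with 4 breeds in 1 fit CCL26, KRT1 and MUC5AC. With 10 of the 55 libraries left out in turn MUC5AC missed the threshold (adjusted p up to 0.0623).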
